A study of Homo sapiens with 12 samples.

Results

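The 10 genes examined here belong to the response of cells to low oxygen: the hypoxia-inducible factor subunits HIF1A and EPAS1, the carbonic anhydrases CA9 and CA12, and the target genes ADM, VEGFA, NDRG1, ANGPTL4, EGLN3 and BNIP3. A gene was measured where a feature of the array, a set of probes summarised as 1 value, carried its symbol and no other, and where a gene had several such features the one with the highest mean over the 12 arrays was used. The feature was thus chosen by its mean over all arrays, which concerned HIF1A alone (9.67 on the log2 scale against 4.48 for its other feature). By this rule 8 of the 10 genes were measured, among 22392 genes with a feature of their own. CA9 was not named in the platform annotation used here, and the only feature that named BNIP3 also named BNIP3P1, so neither has a value. The genes were picked with earlier results of these arrays known, the fall of CA12 among them, so no test below is independent support for that choice.

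RNA came from MDA-MB-231, an established human triple-negative breast cancer (TNBC) cell line, measured on Affymetrix whole-transcript arrays after 36 h. Untreated cells (Control) had 4 arrays. GM-453 was used at 5 µg/mL (3 arrays), paclitaxel at 1 µg/mL (2 arrays) and GNE-140 at 50 µM (3 arrays). GM-453 is the cytostatic compound under study, paclitaxel is a taxane that stabilises microtubules, and GNE-140 inhibits lactate dehydrogenase, the enzyme that converts pyruvate to lactate. The compounds went in with DMSO and the controls got nothing, so solvent and compound cannot be told apart, and all cells grew in high-glucose medium in air with CO2, with no low-oxygen group. No source says that replicates were separate cultures, and the p-values thus rest on a spread between arrays of 1 cell line that may be technical. The doses differ between compounds, so a difference between compounds is one between the doses used.

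In well-oxygenated cells the HIF alpha subunits are made and then destroyed: prolyl hydroxylases of the EGLN family mark them with the help of oxygen, and the VHL protein delivers them to the proteasome. When oxygen is short the subunits last, pair with ARNT and bind the letters ACGTG or GCGTG near genes for glucose uptake, glycolysis, blood vessel growth and pH control. Much of this control acts on the protein, which the arrays do not measure. Carbonic anhydrases convert carbon dioxide and water to bicarbonate and a proton, and CA9 and CA12 hold their active sites outside the cell, where they take part in handling the acid of glycolytic tumour cells.

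RefSeq promoter sequences (GRCh38.p14) were at hand for 8 of the 10 genes, all but VEGFA and NDRG1, and the 250 bases before the start of each were searched on both strands for ACGTG and GCGTG. Either motif was present in 43.2% of 35116 promoters, so a match is a description and not a binding site. The sequences of 3 members with different patterns of signal are shown, in lower case and 5′ to 3′ on the strand of the gene, with the match in capitals. The CA12 window at chr15:63381847-63382096 (minus strand) held GCGTG read on the opposite strand, as CACGC, starting 234 bases before the gene. The ADM window at chr11:10304823-10305072 (plus strand) held GCGTG 101 bases before the start, and the ANGPTL4 window at chr19:8363905-8364154 (plus strand) held ACGTG on the opposite strand, as CACGT, 234 bases before the start.
CA12: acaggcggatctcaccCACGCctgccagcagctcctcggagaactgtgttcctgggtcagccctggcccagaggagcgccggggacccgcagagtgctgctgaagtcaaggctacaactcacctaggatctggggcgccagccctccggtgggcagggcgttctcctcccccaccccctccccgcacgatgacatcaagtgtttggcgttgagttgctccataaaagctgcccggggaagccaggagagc
ADM: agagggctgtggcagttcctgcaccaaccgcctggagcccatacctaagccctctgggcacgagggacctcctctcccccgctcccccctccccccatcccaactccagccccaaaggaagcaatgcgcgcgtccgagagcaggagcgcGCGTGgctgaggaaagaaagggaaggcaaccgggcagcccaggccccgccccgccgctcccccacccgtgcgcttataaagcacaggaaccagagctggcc
ANGPTL4: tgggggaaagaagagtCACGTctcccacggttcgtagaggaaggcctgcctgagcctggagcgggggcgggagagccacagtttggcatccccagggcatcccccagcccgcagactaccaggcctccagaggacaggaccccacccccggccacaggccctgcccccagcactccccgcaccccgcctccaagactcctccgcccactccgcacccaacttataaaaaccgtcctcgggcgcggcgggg
The windows of EPAS1, CA9 and 1 of the 2 HIF1A entries held 1 match each, that of BNIP3 held 6, and those of EGLN3 and the other HIF1A entry held none. The 2 BNIP3 matches to ACGTG, 134 and 133 bases before the start, overlap in CACGTG, which reads the same on both strands. The windows of CA12, lowest under GM-453, and of ADM, highest under GNE-140, each held 1 GCGTG, a motif found in 32.2% of all promoters. That of ANGPTL4 held ACGTG, found in 18.5%.

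Some features of the arrays bear on every result below. The median signal of an array lay between 2.64 and 2.82. The markers of this mesenchymal-like line were well expressed, with means over the arrays of 7.78 for VIM, 7.96 for CD44, 7.28 for EGFR and 9.25 for AXL, against a median feature mean of 2.71. Below that median were the luminal markers ESR1 (2.55), PGR (1.80) and FOXA1 (2.11), the leukocyte markers PTPRC (1.49), CD3E (1.60) and LYZ (1.82), the erythroid marker HBB (1.76) and the fibroblast markers DCN (1.52) and LUM (1.61), while the luminal marker GATA3 was at 4.59 and the endothelial marker CDH5 at 2.97. The epithelial markers EPCAM (5.85), CDH1 (4.31), KRT8 (4.23) and KRT18 (4.92) were all above it, and KRT18 was lower under GNE-140 than in the controls by a difference of −0.64 (limma adjusted p = 0.0497). Control replicate 4 stood near the GNE-140 arrays, with a mean Pearson correlation over all features of 0.978 with them against at most 0.960 with another control, and the GEO descriptions of these same 4 arrays name another cell line number than their titles do. The controls also differed in 12 proliferation genes, a list added after values were seen that includes MKI67, TOP2A and CCNB1. Their median difference from the control mean was 0.33, 0.37, −0.19 and −0.53 in replicates 1 to 4. It was 0.81 to 0.92 under GM-453, 1.21 and 1.21 under paclitaxel and −0.70 to −0.66 under GNE-140. The paper chose doses of GM-453 and paclitaxel that fully stopped proliferation, in counts made later than 36 h. Whether this median follows growth in these groups, the controls or GNE-140 was not tested. Centring each array on its median changed all differences of GNE-140 from the controls by −0.11, those of GM-453 from GNE-140 by 0.12 and those of paclitaxel from GNE-140 by 0.11.

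CA12 was the member with the largest difference from the controls, and it was lower under both cytostatic drugs. Its log2 signal was 6.11, 6.22, 7.13 and 6.96 in the 4 controls, 4.48, 4.45 and 4.29 under GM-453, 4.93 and 5.03 under paclitaxel, and 6.30, 6.24 and 5.94 under GNE-140. Every array of either cytostatic drug lay below every control and every GNE-140 array, while the GNE-140 arrays overlapped the controls. Under GM-453 CA12 fell by 2.20 (standard error 0.23, 95% interval −2.70 to −1.69, limma adjusted p = 0.00154), which is 4.59-fold. Under paclitaxel it fell by 1.62 (standard error 0.26, adjusted p = 0.0212), or 3.08-fold. Under GNE-140 the difference was −0.44 (standard error 0.23, adjusted p = 0.349), with a 95% interval of −0.95 to 0.06. CA12 was higher in control replicates 3 and 4 than in 1 and 2, the proliferation medians were lower in 3 and 4 than in 1 and 2, and the part of this in the result was not tested. Against control replicates 1 and 2 alone the difference under GM-453 was −1.75 (adjusted p = 0.00158), against 3 and 4 alone −2.64 (adjusted p = 0.000128), and without replicate 4 it was −2.08 (adjusted p = 0.00353). The paclitaxel call was lost without paclitaxel replicate 1 (adjusted p = 0.216) or replicate 2 (adjusted p = 0.204). Under GNE-140, control replicates 3 and 4 alone made CA12 lower by a difference of −0.89 (adjusted p = 0.0284), and replicates 1 and 2 alone gave 0.00 (adjusted p = 0.995).

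**Figure D1:**
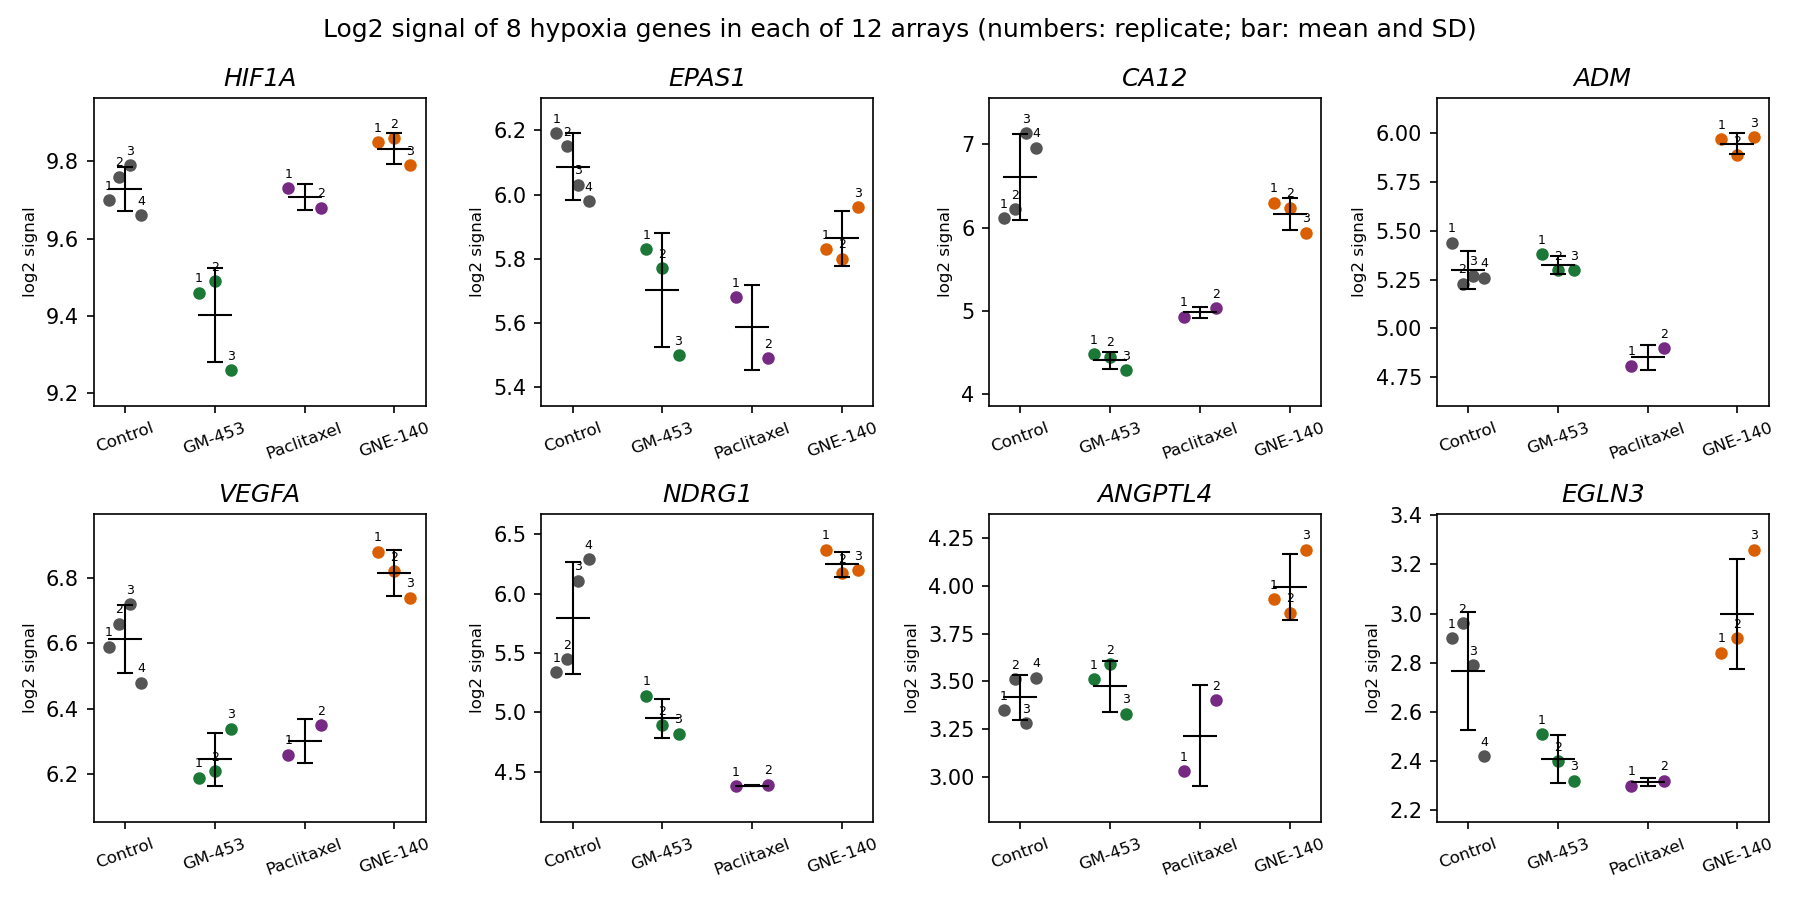
Log2 signal (vertical axis, scaled for each gene) of the 8 measured genes in each of the 12 arrays, by group, with the replicate number beside each point and the mean and SD as bars. CA12 lies between 4.29 and 5.03 under GM-453 and paclitaxel and between 5.94 and 7.13 in the controls and under GNE-140, and ADM is highest in the 3 GNE-140 arrays.

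Of 15 listed carbonic anhydrases, 14 were measured, and CA12 was the only one called against the controls, under GM-453 and under paclitaxel, while none was called under GNE-140. The median difference of the 14 was −0.02, −0.13 and −0.06 under the 3 compounds, beside 0.009, 0.001 and 0.002 over all features. Most were dim: CA1, CA2, CA7 and CA14, for example, had means between 1.70 and 2.46 over the arrays, under the median feature mean of 2.71. CA13, a cytosolic form, had a mean of 4.87 and differences from the controls between −0.26 and −0.19 with adjusted p of 0.557 to 0.811. CA11, a form without catalytic activity, had a mean of 3.65 and a difference under GM-453 of −1.0 (standard error 0.35, adjusted p = 0.206). CA5B, a mitochondrial form, was 5.12 to 5.43 under GM-453, 5.37 to 5.60 under paclitaxel, 3.67 to 4.02 under GNE-140 and 3.82 to 5.43 in the controls. It was higher under GM-453 than under GNE-140 by 1.50 (standard error 0.33, adjusted p = 0.0177) and higher under paclitaxel by 1.67 (standard error 0.37, adjusted p = 0.029), the reverse of CA12 in both comparisons. Its difference from the controls was −1.05 under GNE-140 (adjusted p = 0.135) and passed in no comparison with them.

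NDRG1 encodes a cytoplasmic protein induced by stress and differentiation, and is a widely used hypoxia marker. It read 5.34, 5.45, 6.11 and 6.29 in the controls, 5.14, 4.89 and 4.82 under GM-453, 4.38 and 4.39 under paclitaxel, and 6.37, 6.17 and 6.20 under GNE-140. The arrays of both cytostatic drugs lay below all controls, those of paclitaxel below those of GM-453, and the GNE-140 arrays sat with control replicates 3 and 4. Under paclitaxel NDRG1 fell by 1.41 (standard error 0.24, adjusted p = 0.0272), or 2.67-fold. Under GM-453 its difference was −0.85 (standard error 0.21, adjusted p = 0.074) and under GNE-140 0.45 (standard error 0.21, adjusted p = 0.314). Like CA12, NDRG1 was higher in control replicates 3 and 4, so these values move with the controls used. Against replicates 1 and 2 alone the differences were −0.45 under GM-453 (adjusted p = 0.12), −1.01 under paclitaxel (adjusted p = 0.0179) and 0.85 under GNE-140 (adjusted p = 0.00415), and against replicates 3 and 4 alone they were −1.25 (adjusted p = 0.00124), −1.82 (adjusted p = 0.000603) and 0.05 (adjusted p = 0.933). The GM-453 difference passed without control replicate 1 (−1.0, adjusted p = 0.0326) or 2 (−0.96, adjusted p = 0.0486). The paclitaxel call was lost without either paclitaxel array (adjusted p = 0.222 and 0.246), any 1 GNE-140 array (0.0508 to 0.053) or control replicate 3 (0.053).

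**Figure D2:**
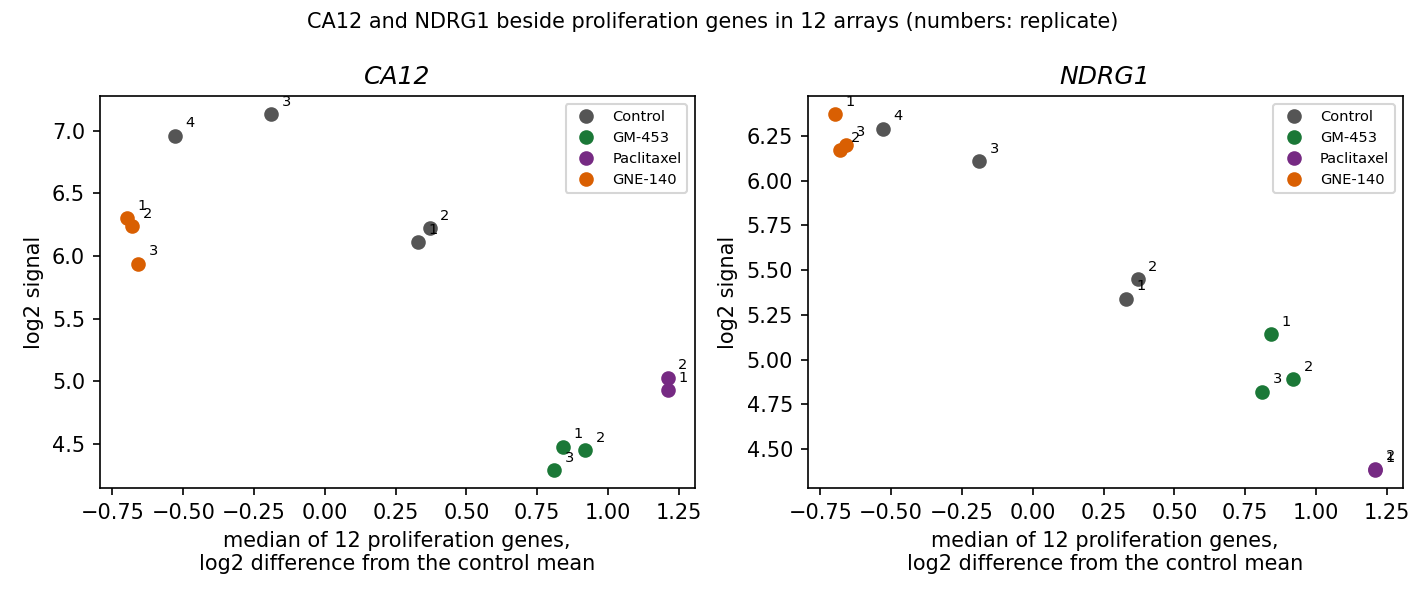
CA12 (left) and NDRG1 (right) log2 signal on the vertical axis against the median log2 difference of 12 proliferation genes from the control mean on the horizontal axis, 1 point per array with its replicate number. Control replicates 3 and 4, at −0.19 and −0.53, have more CA12 and NDRG1 signal than replicates 1 and 2, at 0.33 and 0.37. The GM-453 and paclitaxel arrays lie at 0.81 to 1.21, and the horizontal axis was not tested as a measure of growth.

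The secreted members differed among themselves. ADM encodes adrenomedullin, a vasodilator peptide, and was the one member called higher than the controls in any comparison. It read 5.44, 5.23, 5.27 and 5.26 in the controls, 5.38, 5.30 and 5.30 under GM-453, 4.81 and 4.90 under paclitaxel and 5.97, 5.89 and 5.98 under GNE-140. The GNE-140 arrays lay above all others, the paclitaxel arrays below all others, and GM-453 overlapped the controls. Under GNE-140 ADM rose by 0.65 (standard error 0.10, adjusted p = 0.0138), or 1.57-fold, while its difference was 0.03 under GM-453 (95% interval −0.20 to 0.26, adjusted p = 0.944) and −0.45 under paclitaxel (adjusted p = 0.122). The GNE-140 rise was 0.54 after median centring (adjusted p = 0.055), and it lost its call without any 1 GNE-140 array (adjusted p = 0.0756 to 0.0882). Without control replicate 4 it was 0.63 (adjusted p = 0.00761).

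VEGFA, the main growth factor of blood vessels, read 6.59, 6.66, 6.72 and 6.48 in the controls, 6.19, 6.21 and 6.34 under GM-453, 6.26 and 6.35 under paclitaxel and 6.88, 6.82 and 6.74 under GNE-140. All arrays of the cytostatic drugs were below all controls and all GNE-140 arrays were above them, yet no difference from the controls passed: −0.37 (adjusted p = 0.131), −0.31 (adjusted p = 0.339) and 0.20 (adjusted p = 0.36). ANGPTL4, a secreted inhibitor of lipoprotein lipase, was dimmer, at 3.35, 3.51, 3.28 and 3.52 in the controls, 3.51, 3.59 and 3.33 under GM-453, 3.03 and 3.40 under paclitaxel and 3.93, 3.86 and 4.19 under GNE-140. The GNE-140 arrays were above all others, with a difference from the controls of 0.58 (standard error 0.14, adjusted p = 0.0727) that passed without control replicate 4 (0.61, adjusted p = 0.0253). Under GM-453 and paclitaxel its differences were 0.06 (adjusted p = 0.902) and −0.20 (adjusted p = 0.698), with overlap with the controls.

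No difference of the factors themselves from the controls was called. The 95% interval lay wholly on the lower side for HIF1A under GM-453 (−0.56 to −0.10). It did so too for EPAS1 under GM-453 (−0.65 to −0.12) and paclitaxel (−0.81 to −0.20). It spanned both signs for HIF1A under paclitaxel and GNE-140 and for EPAS1 under GNE-140. HIF1A was among the brightest genes, at 9.70, 9.76, 9.79 and 9.66 in the controls, 9.46, 9.49 and 9.26 under GM-453, 9.73 and 9.68 under paclitaxel and 9.85, 9.86 and 9.79 under GNE-140. The GM-453 arrays were below all others, with a difference from the controls of −0.33 (adjusted p = 0.164), and paclitaxel (−0.02, adjusted p = 0.974) and GNE-140 (0.10, adjusted p = 0.635) overlapped the controls. EPAS1, which encodes HIF-2 alpha, read 6.19, 6.15, 6.03 and 5.98 in the controls, 5.83, 5.77 and 5.50 under GM-453, 5.68 and 5.49 under paclitaxel and 5.83, 5.80 and 5.96 under GNE-140. Every treated array lay below every control, and the differences of −0.38, −0.50 and −0.22 did not pass (adjusted p = 0.163, 0.148 and 0.375). EGLN3, a HIF prolyl hydroxylase that is itself a HIF target, had a mean of 2.66, below the median feature, so its values are close to background. It read 2.90, 2.96, 2.79 and 2.42 in the controls, 2.51, 2.40 and 2.32 under GM-453, 2.30 and 2.32 under paclitaxel and 2.84, 2.90 and 3.26 under GNE-140, with differences from the controls of −0.36, −0.45 and 0.23 (adjusted p = 0.313, 0.317 and 0.454). The other feature of HIF1A was 3.74 to 5.10 in the controls and 3.86 to 4.30 under GNE-140, and its difference of GM-453 from GNE-140 was 0.50 (standard error 0.28, adjusted p = 0.263), opposite in sign to that of the brighter feature.

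Against the controls, then, 1 of the 8 members was called under GM-453 (lower), 2 under paclitaxel (both lower) and 1 under GNE-140 (higher). Over all features the called share was 1.84%, 0.657% and 1.26%. It divided into 0.815% higher and 1.02% lower under GM-453, 0.500% and 0.157% under paclitaxel, and 0.414% and 0.843% under GNE-140. At an unadjusted p under 0.05 the counts were 6, 6 and 2 members, against 14.1%, 11.8% and 16.8% of all features. The arrays of 5, 6 and 4 members did not overlap the controls, against 11.0%, 19.4% and 15.3% of all features. The median difference of the 8 was −0.36 under GM-453, −0.45 under paclitaxel and 0.22 under GNE-140. These 3 comparisons share the 4 controls.

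A direct comparison of the compounds does not use the control mean. The methods' t-test below is a 2-group Student's t-test, which the paper names for its general statistics and not for its arrays. No member was called between GM-453 and paclitaxel: 0 of 8 by limma, which called 0.0242% of all features, and 0 by the methods' t-test. In limma 3 had an unadjusted p under 0.05 (7.10% of all features did). The arrays of 4 members, HIF1A, CA12, ADM and NDRG1, did not overlap, against 30.2% of genes. HIF1A was at −0.31 (95% interval −0.58 to −0.03, adjusted p = 0.65). The largest differences were NDRG1, higher under GM-453 by 0.57 (95% interval 0.01 to 1.12, adjusted p = 0.697), CA12, at −0.57 (95% interval −1.18 to 0.03, adjusted p = 0.719), and ADM, higher by 0.47 (95% interval 0.20 to 0.75, adjusted p = 0.365). These intervals leave room for differences of over 2-fold in NDRG1 and CA12, so the values do not show that the drugs acted alike on them.

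Set against GNE-140, the cytostatic drugs had less signal of all 8 members by the feature used for each. The other feature of HIF1A went the opposite way, by 0.50 under GM-453 and 0.64 under paclitaxel (limma adjusted p = 0.263 in each). Under GM-453, 7 of the 8 were called lower, against 4.18% of all features called lower, 5.38% called higher and 9.56% in either direction. The arrays of 7 members did not overlap, against 41.7% of all features. CA12 was lower by a difference of −1.75 (standard error 0.25, adjusted p = 0.00191), NDRG1 by −1.30 (standard error 0.23, adjusted p = 0.00598), ADM by −0.62 (standard error 0.11, adjusted p = 0.0069) and VEGFA by −0.57 (standard error 0.12, adjusted p = 0.0124). EGLN3 (−0.59, adjusted p = 0.0435), ANGPTL4 (−0.52, adjusted p = 0.0478) and HIF1A (−0.43, adjusted p = 0.0347) passed by less, and EPAS1 was at −0.16 (adjusted p = 0.444). After median centring 3 remained called, namely CA12 (−1.63), NDRG1 (−1.17) and ADM (−0.50), which were also called with any 1 array left out. HIF1A lost its call without any 1 treated array (adjusted p = 0.0536 to 0.12), as did EGLN3 (0.0634 to 0.154) and, without control replicate 3, EGLN3 again (0.0528). ANGPTL4 lost it when any array other than control replicate 4 was left out (0.0507 to 0.163), and VEGFA without GNE-140 replicate 1 (0.0614) or 2 (0.0552).

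Under paclitaxel, 5 of the 8 were called lower than under GNE-140, against 1.26% of all features called lower, 2.79% called higher and 4.06% in either direction. NDRG1 was lower by a difference of −1.86 (standard error 0.26, adjusted p = 0.00278), CA12 by −1.18 (standard error 0.28, adjusted p = 0.0372) and ADM by −1.10 (standard error 0.13, adjusted p = 0.00109). ANGPTL4 was at −0.78 (adjusted p = 0.0238), VEGFA at −0.51 (adjusted p = 0.0498) and EGLN3 at −0.68 (adjusted p = 0.0588). EPAS1 (−0.28, adjusted p = 0.3) and HIF1A (−0.13, adjusted p = 0.595) were not called. The arrays of all 8 members were separate here, as were those of 53.8% of all features, so separation of 2 arrays from 3 says little. NDRG1 and ADM were called with any 1 array left out. CA12 lost its call without any 1 GM-453, paclitaxel or GNE-140 array (adjusted p = 0.0506 to 0.202), ANGPTL4 without any 1 paclitaxel or GNE-140 array (0.0553 to 0.22) and VEGFA when any array other than control replicate 4 was left out (0.0507 to 0.257), while EGLN3 gained one without control replicate 4 (0.0172).

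With a term shared by control replicate 4 and the GNE-140 arrays, under which GNE-140 is set against that replicate alone, no member was called in either comparison with GNE-140, and the differences of GM-453 from GNE-140 were −1.28 for CA12 (adjusted p = 0.216), −0.65 for NDRG1 (adjusted p = 0.497) and −0.68 for ADM (adjusted p = 0.15). The 12 proliferation genes moved with this comparison too, being called higher under both GM-453 and paclitaxel than under GNE-140 in 12 of 12 cases, and their part in it was not tested. So did the 4 markers of the line, all called higher under GM-453 than under GNE-140: VIM by 0.59 (adjusted p = 0.0438), CD44 by 0.73 (adjusted p = 0.0309), EGFR by 0.87 (adjusted p = 0.0204) and AXL by 1.15 (adjusted p = 0.00511). Under paclitaxel 1 of the 4 was called higher than under GNE-140, AXL (0.93, adjusted p = 0.039). The median of the 4 against the control mean was −0.39 to −0.28 in the GNE-140 arrays, 0.40 to 0.57 under GM-453 and 0.10 and 0.19 under paclitaxel, and 0.31, 0.31, −0.24 and −0.37 in control replicates 1 to 4. Their part in the result was not tested either.

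**Figure D3:**
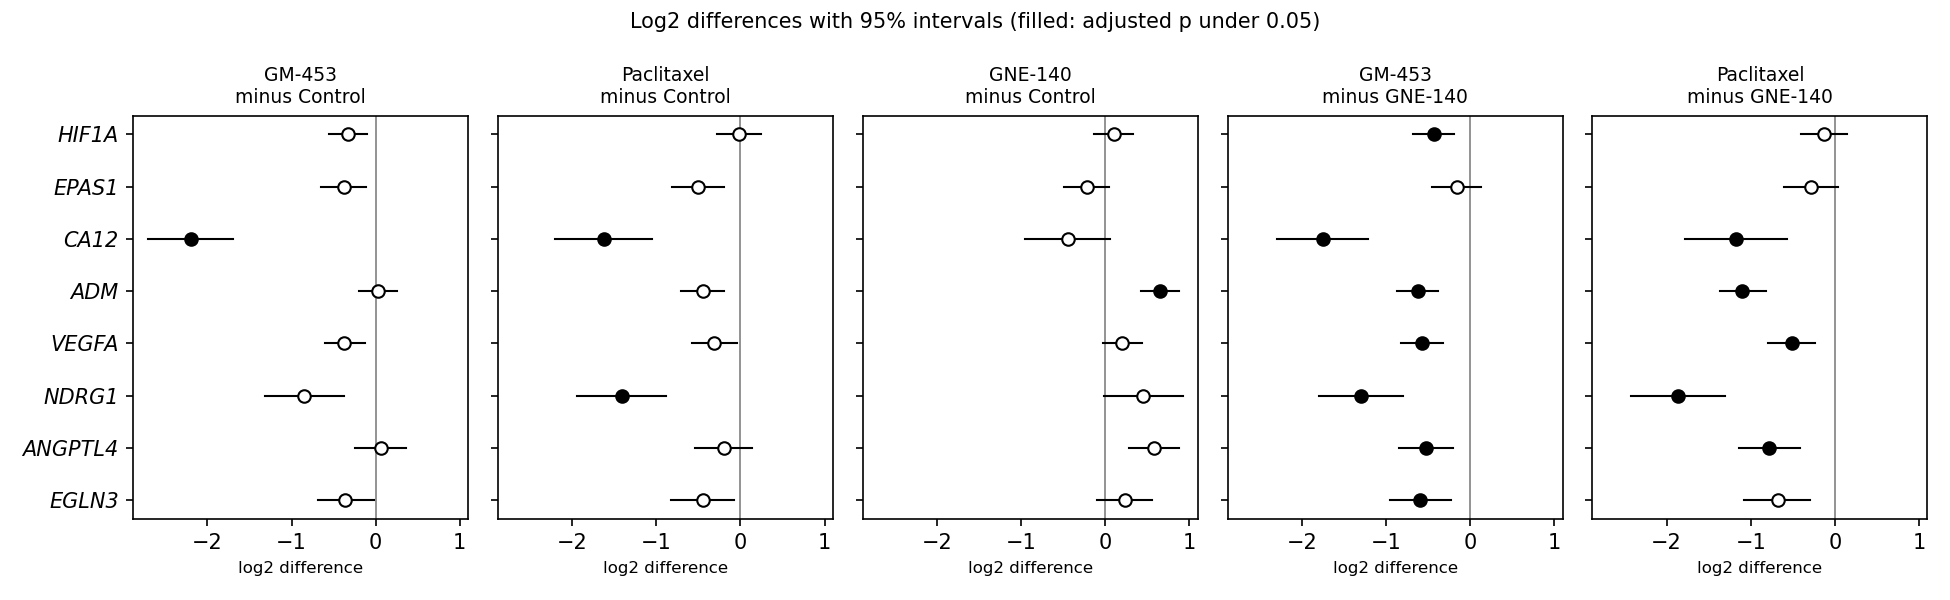
Log2 difference (horizontal axis) of the 8 genes in 5 comparisons, with 95% intervals from limma, filled where the adjusted p was under 0.05. Against GNE-140, all 8 differences lie below 0 for GM-453 and for paclitaxel, with 7 and 5 of them called, while against the controls CA12 is called for both drugs, NDRG1 for paclitaxel and ADM for GNE-140.

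The wider list of HIF target genes held 50 genes, of which 45 were measured, and was written with earlier results of these arrays known. It includes the members ADM, ANGPTL4, CA12, EGLN3, NDRG1 and VEGFA, so its counts are not separate from those of the members. Under GM-453, 1 was called higher and 2 lower than the controls, with a list median of −0.14, under paclitaxel 0 and 2, with a median of −0.18, and under GNE-140 4 and 2, with a median of 0.20. Over all features the medians were 0.009, 0.001 and 0.002, and the shares called higher and lower are those given above. With 1 array left out the counts ran from 0 to 1 higher and 2 to 4 lower under GM-453, from 0 to 0 and 0 to 5 under paclitaxel, and from 0 to 7 and 1 to 3 under GNE-140. Without control replicate 4 the counts were 0 and 4, 0 and 5, and 7 and 3. Leaving out any 1 GNE-140 array gave 0 and 1 under GNE-140, leaving out either paclitaxel array gave 0 and 0 under paclitaxel, and leaving out control replicate 1 or 2 gave 1 and 4 under GM-453. Each of the 3 comparisons had 16 of the 45 at an unadjusted p under 0.05, against the 14.1%, 11.8% and 16.8% of all features. Beside CA12, the other gene lower under GM-453 was DDIT4, which restrains mTOR signalling under stress. DDIT4 read 6.52 to 7.04 in the controls and 5.81 to 5.89 under GM-453, where it fell by 0.98 on the log2 scale (adjusted p = 0.00417). This call was lost with only the 2 groups in the model (adjusted p = 0.0799) and with the methods' t-test (0.15). The gene called higher was CXCR4, a chemokine receptor, at 3.46 to 4.23 in the controls and 4.67 to 5.14 under GM-453, a rise of 1.05 (adjusted p = 0.0417) that was lost without control replicate 3 (adjusted p = 0.0965) or 4 (0.0709), any 1 GM-453 array (0.07 to 0.15) or any 1 GNE-140 array (0.0636 to 0.0718).

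Under GNE-140 the 4 target genes called higher were ADM, SLC2A3, BHLHE40 and EGLN1. SLC2A3, the glucose transporter GLUT3, read 4.20 to 4.80 in the controls and 5.46 to 5.77 under GNE-140, a rise of 1.00 (adjusted p = 0.017). BHLHE40, a transcriptional repressor, was 6.15 to 6.74 in the controls and 7.43 to 7.45 under GNE-140, a rise of 1.00 (adjusted p = 0.0125). EGLN1, the prolyl hydroxylase that sets HIF stability in most cells, rose by 0.64 (adjusted p = 0.0315). The 2 called lower were CITED2, a competitor of HIF-1 alpha for its coactivators, which fell by 1.13 (adjusted p = 0.00175), and LOX, a matrix crosslinking enzyme, which fell by 0.87 (adjusted p = 0.0115). All but CITED2 lost their call without any 1 GNE-140 array, with adjusted p of 0.0594 to 0.0985 for SLC2A3, 0.0662 to 0.0771 for BHLHE40, 0.112 to 0.166 for EGLN1 and 0.0527 to 0.0849 for LOX. EGLN1 lost it also without control replicate 1 (0.0811) or 3 (0.0558) or either paclitaxel array (0.0576) and after median centring (0.11). With the term shared by control replicate 4 and GNE-140, CITED2 (−0.90, adjusted p = 0.0662), LOX (0.183) and EGLN1 (0.0848) lost theirs. The methods' t-test called none of these 5 genes (CITED2 at 0.0782, the others at 0.122 to 0.182), and with only the 2 groups in the model CITED2 alone of them passed.

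**Figure D4:**
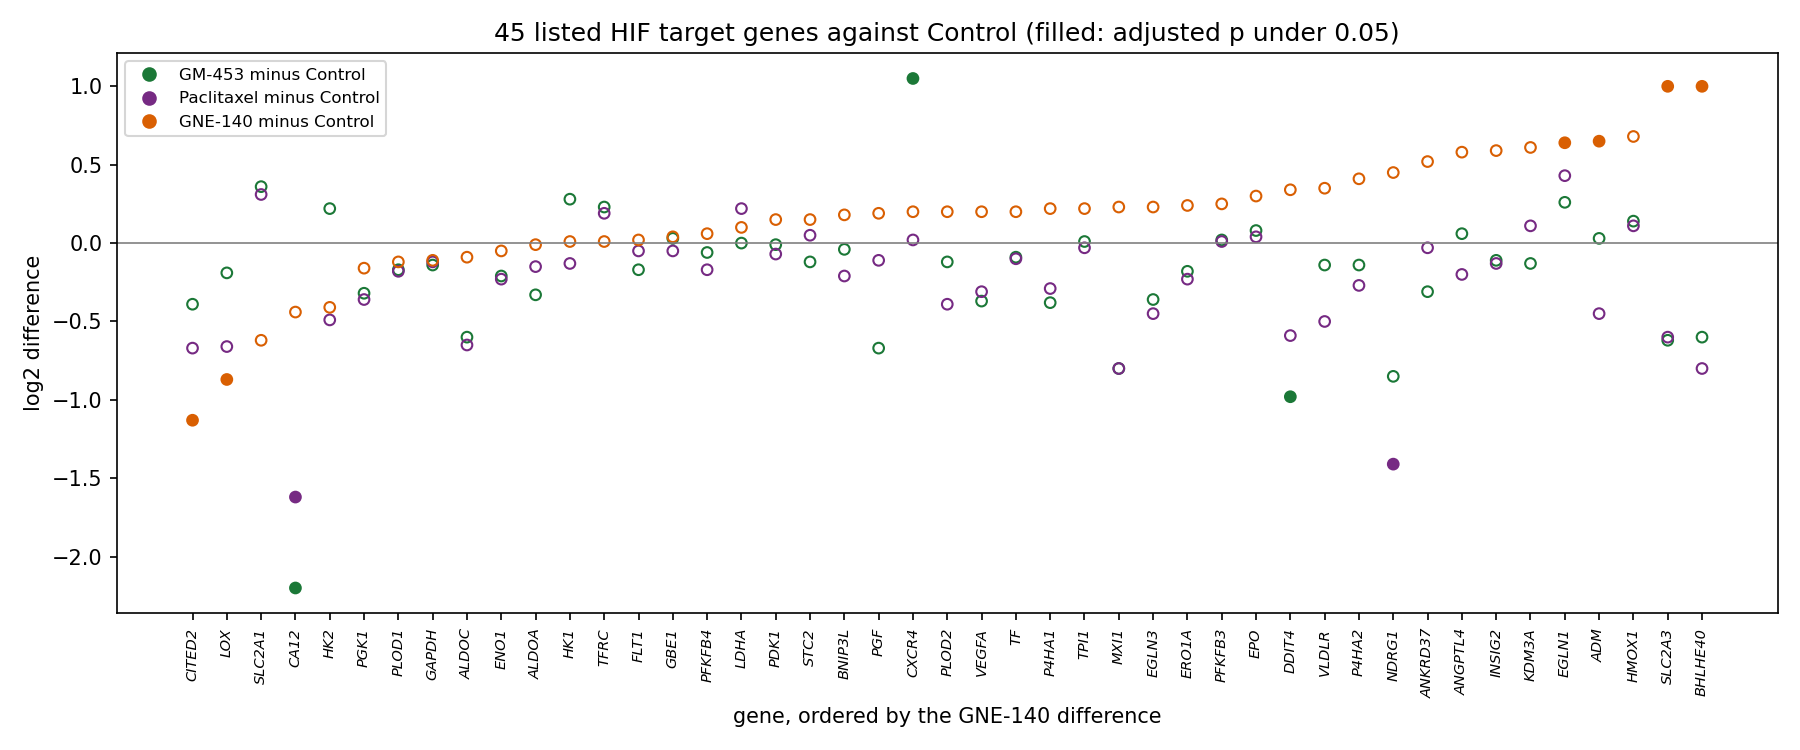
Log2 difference from the controls (vertical axis) of 45 HIF target genes under GM-453, paclitaxel and GNE-140, ordered by the GNE-140 difference, filled where the adjusted p was under 0.05. The genes at the right end under GNE-140, SLC2A3 and BHLHE40, are at −0.62 and −0.60 under GM-453, and CA12 and NDRG1 have the lowest values under paclitaxel.

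Between GM-453 and GNE-140, 16 of the 45 targets were called lower and 5 higher, against 4.18% and 5.38% of all features, with a list median of −0.31. Between paclitaxel and GNE-140 the counts were 11 and 0, against 1.26% and 2.79%, with a median of −0.29. Over all features these medians were 0.002 and 0.004. The members on the list were all among the 16 lower under GM-453. All of them but EGLN3 were among the 11 lower under paclitaxel. Beside the members, SLC2A3 was lower under GM-453 than under GNE-140 by a difference of −1.62 (adjusted p = 0.000462), BHLHE40 by −1.60 (adjusted p = 0.000337), DDIT4 by −1.33 (adjusted p = 0.000337) and the MYC antagonist MXI1 by −1.03 (adjusted p = 0.0144). The 5 called higher were SLC2A1, the glucose transporter GLUT1 (0.98, adjusted p = 0.0231), the hexokinase HK2 (0.64, adjusted p = 0.0229), LOX (0.68, adjusted p = 0.0152), CITED2 (0.75, adjusted p = 0.00779) and CXCR4 (0.85, adjusted p = 0.0483). The list thus did not move as one, and the 2 glucose transporters went opposite ways. With 1 array left out the GM-453 counts ran from 6 to 18 lower and 1 to 5 higher, and the paclitaxel counts from 4 to 16 lower and 0 to 1 higher. With the term shared by control replicate 4 and GNE-140 they were 5 and 0, and 3 and 0.

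Among the 11 subunits and regulators of HIF, 10 were measured, and none was called under GM-453 or paclitaxel against the controls (4 had an unadjusted p under 0.05 in each, against 14.1% and 11.8% of all features). Under GNE-140, EGLN1 rose and CITED2 fell, as above. ARNT, the partner of the alpha subunits, differed from the controls by −0.24, −0.11 and 0.05 under GM-453, paclitaxel and GNE-140 (adjusted p = 0.498, 0.872 and 0.895). HIF1AN, the asparaginyl hydroxylase that blocks HIF activity, differed by 0.06, 0.11 and 0.04 (adjusted p = 0.891, 0.871 and 0.911), and VHL by −0.28, −0.24 and 0.24 (adjusted p = 0.649, 0.804 and 0.603). Of 16 genes for membrane pH and lactate transport, 12 were measured, and CA12 was again the only one called against the controls. SLC4A4, a sodium bicarbonate cotransporter, was higher under GM-453 than under GNE-140 by 0.76 (adjusted p = 0.0368).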

How the data were processed

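RNA of MDA-MB-231 cells was hybridised to Affymetrix HuGene 2.1 ST arrays. The authors made the deposited log2 signals of 53617 features in 12 arrays with Affymetrix Expression Console, for which neither a version nor summarisation settings were found in the labels or the paper. No further transformation or filter was applied. Gene names came from the platform annotation: 23866 features had 1 symbol, 1852 several and 27899 none, and 22560 were matched by gene ID to RefSeq, with 0 symbols changed.

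The 4 groups were fitted in 1 linear model over all features with lmFit and eBayes of limma 3.58.1 (R 4.3.3). Benjamini-Hochberg adjustment ran over the 53617 features. Called means an adjusted p under 0.05, with no correction across the 6 comparisons. SDs are between arrays. The fit was tested on simulated data, and precision is limited by how few arrays there are.

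The members and gene lists were chosen with earlier results of these data known. Named genes are the members, list genes called against the controls (up to 8 per list and comparison), and the 3 genes closest to each called member. List genes named for a comparison with GNE-140, for their level or as uncalled regulators were chosen after values were seen, as were the proliferation list and the split of the controls. Replicate numbers showed no clear pairing of the arrays, in a check limited by the small groups. Alternatives covered the model, test, normalization, filter, feature choice, fold limit, a replicate block, a term for control replicate 4 with GNE-140, and each array left out.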

Additional observations from a re-analysis of the deposited data

How the results depend on the processing

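The counts of the 8 members called were 1, 2 and 1 for GM-453, paclitaxel and GNE-140 against the controls, 0 between GM-453 and paclitaxel, and 7 and 5 for GM-453 and paclitaxel against GNE-140. For GM-453 against the controls the count was 2 with limma-trend, with dim features left out, with named features only and with control replicates 3 and 4 only (chosen after seeing the data), and 0 with the methods' t-test. For paclitaxel it was 0 with only the 2 groups in the model and with the methods' t-test. For GNE-140 it was 0 with only the 2 groups, the methods' t-test, median centring, a fold change above 2 as well, and the term shared by control replicate 4 and GNE-140, 2 with array weights, dim features left out, named features only and control replicates 3 and 4 only (1 higher and 1 lower), and 3 with control replicates 1 and 2 only. Against GNE-140, GM-453 had 3 after median centring, 2 with the fold limit and 0 with the shared term, and paclitaxel had 3, 3 and 0, and 2 with the methods' t-test. With 1 array left out the counts ran from 1 to 2, 0 to 2, 0 to 2, 0 to 0, 3 to 7 and 2 to 6, in the order given first. Where 1 paclitaxel array remained, it was assumed to vary like the other groups.

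The replicate number as a block, which drops control replicate 4 because no other group has that number, gave 0 members for paclitaxel and 2 for GNE-140 against the controls and left the other counts within 1.5 times. Same-numbered arrays did not clearly deviate together (1 of 15 pairs with a correlation over 0.1, range −0.078 to 0.126), and 3 of 12 arrays correlated best with their own number. Control replicate 4 has no partner of its number, and the 2 paclitaxel arrays deviate from their mean as mirror images. The check therefore cannot exclude pairing.

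The difference of HIF1A between GM-453 and GNE-140 turned from −0.43 to 0.03 (adjusted p = 0.917) with the mean of both features. The paper lists CA12 as lower under both GM-453 and paclitaxel by its own criteria. It does not name its array test, so the methods' t-test need not be that test. Here CA12 under GM-453 was called in 25 of 26 alternatives, at −2.64 to −1.75, and lost its call with the methods' t-test (adjusted p = 0.151). CA12 and NDRG1 under paclitaxel lost theirs with only the 2 groups (0.229 and 0.253), the block (0.105 and 0.0854) and the methods' t-test (0.549 and 0.561). The cause was not tested in any of these.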

Other observations

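For each member called against the controls, the genes with the most similar pattern were sought among 14202 genes with a mean at or above the median feature. Pearson's r over the 12 arrays is a description here, since the arrays share groups and the 4 groups alone set much of it. CA12 was closest to the organic anion transporter SLCO4C1 (r = 0.993), the interferon-induced membrane protein IFITM1 (0.984) and SLC37A2 (0.981), a sugar-phosphate exchanger. NDRG1 was closest to the amino acid transporter SLC38A2 (0.975), the stress-response gene IER3 (0.965) and the endothelial lipase LIPG (0.963). ADM was closest to the HSP40 co-chaperone DNAJB1 (0.955), the ephrin EFNA3 (0.929) and the zinc finger factor HIVEP2 (0.927). None of these 9 genes is on the lists of HIF targets, carbonic anhydrases or pH transport used here. These lists are short and were chosen with earlier results known. Absence from them does not show that a gene is unrelated to low oxygen.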
